A study of Mus musculus with 6 samples.

Results

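Cend1 (cell cycle exit and neuronal differentiation 1, ENSMUSG00000060240) was followed as a single gene, 1 of 14149 genes tested among 54532 Ensembl gene IDs, in RNA sequencing of heart ventricles from E12.5 mouse embryos. It was found by its symbol in the GENCODE M21 annotation, with no threshold on its values, but it was chosen with earlier results of these data known. There were 3 control libraries, with the genotype label CTL, and 3 libraries from LSD1 conditional knockout (LSD1-CKO) embryos of the same age and tissue. LSD1 is the protein encoded by Kdm1a. The labels do not state the strain, the Cre driver or the cells in which Kdm1a was deleted, nor do they say if the 3 libraries of a genotype stem from different embryos. The p-values are therefore set against the scatter of these libraries, part of which may be technical. Sex-linked transcripts, given below, set knockout 2 and knockout 3 apart as different embryos but do not decide this for the controls. The title of the series names Cend1, and the study may have chosen it on these same libraries, so its direction is not independent evidence.

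Cend1, also known as BM88, encodes a small membrane-anchored protein known from the nervous system, where it accompanies neural precursors as they leave the cell cycle and become neurons. Work in neural cells has linked it to lower cyclin D1 activity through the p53 and Rb pathways, and it binds RanBPM (the product of Ranbp9), AHI1 and the kinase DYRK1B. LSD1 is a histone demethylase that works with the CoREST scaffold and histone deacetylases, and the REST repressor brings this complex to many neuronal genes in cells that are not neurons.

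In the GRCm38 (mm10) assembly Cend1 lies on the minus strand of chromosome 7, from 141426446 to 141429491, a span of 3046 bases. Its 4 annotated transcripts share a coding sequence of 447 bases, or 149 codons, which lies wholly in exon 2 (141427459 to 141427905). The merged exons cover 1775 bases, and no exon base is shared with another annotated gene, so reads of an overlapping gene do not enter its count. On the upstream side the next gene, Slc25a22, is read from the same strand and ends 252 bases before the start of Cend1. Part of the sequence between the genes is shown because Cend1 and Slc25a22, its near neighbour, had different values in the knockout. It was read from RefSeq's GRCm38.p6 table of promoters, which places the start of Cend1 at 141429562, 71 bases before the GENCODE start. The 71 bases between these starts are not printed and were not searched for motifs. The window of 250 bases before that start is chr7:141429563-141429812, of which 69 bases lie in Slc25a22 and are not printed. The remaining 181 bases, chr7:141429563-141429743, are given 5′ to 3′ on the minus strand, with the reverse complement of CCAAT in capitals.
Cend1 promoter: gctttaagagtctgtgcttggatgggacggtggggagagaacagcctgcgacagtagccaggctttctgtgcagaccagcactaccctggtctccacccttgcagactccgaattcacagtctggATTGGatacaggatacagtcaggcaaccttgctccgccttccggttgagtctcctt

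The whole window of 250 bases, with the 69 unprinted bases of Slc25a22, had a GC content of 46% and 5 CpG dinucleotides. The medians over 32851 promoters of the same length were 52.4% and 6. These values do not describe the 181 printed bases alone. Of the motifs searched on both strands, CCAAT matched once, on the opposite strand and 56 bases before the RefSeq start. That match was the only one among the motifs searched, and 33.8% of all promoters hold one. GGGCGG (the GC box) did not match and is found in 32.7% of promoters, TATAAA did not match and is found in 12.4%, and CANNTG (the E-box) did not match and is found in 66.2%. The motif of the GATA factors, AGATAA, did not match, against 9.99% of promoters. The left and right parts of the REST element, searched as TTCAGCACC and GGACAGCGC, did not match either, against 0.301% and 0.304% of promoters. CANNTG can overlap other motifs. Matches are letters in a window and were not set against binding data.

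The deletion target was checked first. Kdm1a stood at 29.99, 29.7 and 22.8 FPKM (fragments scaled by exon length and by library total) in control libraries 1 to 3 and at 10.7, 11.8 and 10.96 FPKM in knockout libraries 1 to 3. Every knockout library lay below every control library, and Kdm1a fell by 1.22 on the log2(FPKM + 1) scale (SE 0.11; limma adjusted p = 0.00274). The knockout mean, 11.1 ± 0.555 FPKM, was 0.405 of the control mean, 27.5 ± 4.08 FPKM (SD, n = 3). The exact two-sided permutation test gave p = 0.1, the smallest that 3 against 3 libraries allow.

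Cend1 was present in control ventricles and higher in all knockout ventricles. Its level was 10.6 FPKM in control 1 (348 reads; 95% interval for counting error 9.54 to 11.8), 9.50 FPKM in control 2 (300 reads; 8.45 to 10.6) and 7.41 FPKM in control 3 (254 reads; 6.53 to 8.38). In the knockout it was 29.6 FPKM in library 1 (949 reads; 27.7 to 31.5), 32.2 FPKM in library 2 (1110 reads; 30.4 to 34.2) and 27.2 FPKM in library 3 (863 reads; 25.4 to 29.1). The groups did not overlap, and the gap between the highest control and the lowest knockout library was 16.6 FPKM. Control 3 was the lowest library, and its interval for counting error did not overlap those of the other controls.

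The means were 9.18 ± 1.63 FPKM in control and 29.7 ± 2.501 FPKM in knockout (SD, n = 3), a ratio of 3.23. Between single libraries the ratio ran from 2.56, for the lowest knockout over the highest control, to 4.35, for the highest over the lowest. The difference of 1.60 on the log2(FPKM + 1) scale (SE 0.12) passed the test across all genes (limma adjusted p = 0.00159), with all 3 knockout libraries above all 3 controls. The exact permutation test of Cend1 alone gave p = 0.1, again the smallest possible. In bulk tissue, more cells with Cend1 RNA and more Cend1 RNA per cell cannot be told apart.

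The spread within each group was larger than counting alone would give. The coefficient of variation was 17.7% in control, where the reads allow 5.80%, and 8.43% in knockout, where they allow 3.22%. The scatter between libraries, more than the depth, set the precision of its means.

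**Figure D1:**
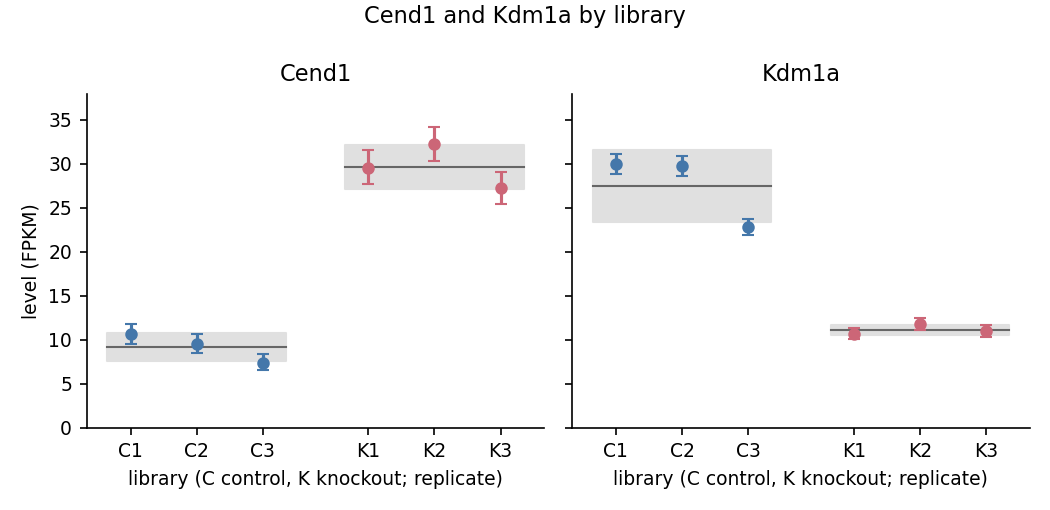
Level of Cend1 and of Kdm1a (FPKM, linear axis from 0) in each of the 6 libraries; points are libraries with 95% intervals for counting error, lines are group means and shaded bands 1 SD (n = 3). Cend1 lies at 7.41 to 10.6 FPKM in control and 27.2 to 32.2 FPKM in knockout, and Kdm1a moves the other way in the same libraries.

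Counted from the top of the 14149 tested genes, Cend1 ranked 4682, 5053 and 5874 in control libraries 1 to 3 and 1916, 1729 and 2042 in knockout libraries 1 to 3. As a percentile of the tested genes this was 63.2 ± 4.31 in control and 86.6 ± 1.11 in knockout (SD, n = 3). Cend1 thus stood above the middle of the expressed genes in control ventricle as well, at 1.98, 1.74 and 1.36 times the library's median FPKM. In the knockout it stood at 5.41, 5.85 and 4.93 times that median. Kdm1a passed it in the other direction, with a mean percentile of 85.1 in control and 68.4 in knockout. A percentile depends on which genes are counted: over all genes above 0 in a library the means were 75.1 and 91.1, and over genes averaging 5 FPKM or more they were 29.9 and 74.5.

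Among all genes tested, 270 (1.91% of those tested) were called higher in knockout and 66 (0.466%) lower, at a limma adjusted p under 0.05. All knockout libraries lay above all controls for 11% of tested genes and below for 10.4%. By p-value Cend1 ranked 15 among all tested genes, and by size of the log2 change it ranked 9, also 9 among the 270 called higher. By ratio of means it ranked 43 among them, because the log2(FPKM + 1) scale shrinks the change of genes with low levels. Genes called higher had a median control level of 2.84 FPKM and a median ratio of 1.97, both below the values of Cend1. Its control level ranked 63 among them, its knockout level 29 and its gain of 20.5 FPKM 14.

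Ratios as large as that of Cend1 were rare among genes at or above its control level. Both limits used here, its control mean and its ratio, are its own values, so the count depends on them. Of 5150 tested genes with a control mean at least as high, 2 had a ratio at least as large, Cend1 itself and Sumo2, a ubiquitin-like modifier. Sumo2 was not called (limma adjusted p = 0.31). It stood at 15.6, 14.8 and 20.7 FPKM in control and at 70.7, 89.4 and 14.4 FPKM in knockout, so that knockout 3 fell below every control. Just under the control level of Cend1, at 9.01 FPKM, Tesc, a calcium-binding protein, had a ratio of 6.74 and was called higher. Sumo2 and Tesc were named after their values were seen.

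The protein-coding genes next to Cend1 in the order of log2 change spanned control levels from far below it to close to it. Above it came Cldn3, a tight junction protein, at 1.4998 FPKM in control and 6.999 FPKM in knockout, with a log2 change of 1.72. Syngr3, a synaptic vesicle protein, went from 0.0435 to 2.40 FPKM (log2 change 1.68), and Gng3, a G protein gamma subunit, from 0.386 to 3.401 FPKM (log2 change 1.67). Below it came Stac2, an adaptor of calcium channels, with 1.05 and 5.06 FPKM (log2 change 1.56). Mt3, a metallothionein first described in brain, had 8.12 and 25.5 FPKM (log2 change 1.53), and Tmem35a, a chaperone of acetylcholine receptors, had 6.85 and 21.1 FPKM (log2 change 1.51). All 6 were called higher by limma, which is how they were chosen. Mt3 and Tmem35a are the closest of them to Cend1 in control level, and both had ratios near its own, 3.14 and 3.08.

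**Figure D2:**
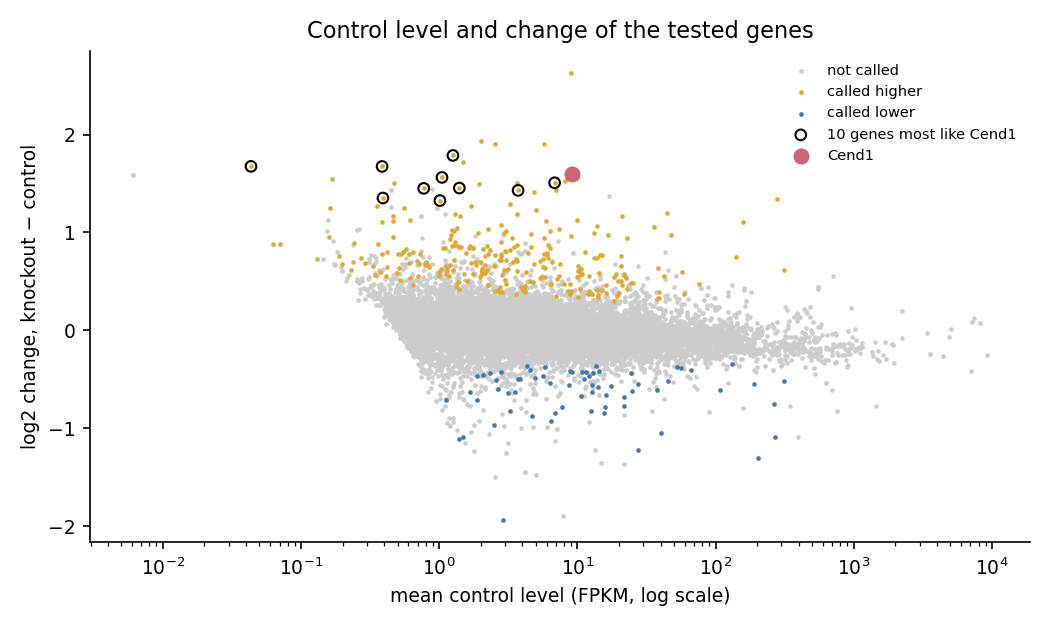
Mean control level (FPKM, log axis) against the knockout minus control difference in log2(FPKM + 1) for tested genes with a control mean above 0; colours mark genes called by limma at an adjusted p under 0.05. Cend1, at 9.18 FPKM and 1.60, lies at the upper edge of the cloud, to the right of the 10 ringed genes whose pattern was most like it.

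The question for the surrounding chromosome was whether the genes next to Cend1 moved with it. None was called, but at the shares of all tested genes 14 genes would show few calls or none. Their changes were all far smaller than that of Cend1. Within 100 kb of either end of Cend1, from 141326446 to 141529491 on chromosome 7, the annotation holds 20 other genes, 14 of them protein-coding. Testing was possible for 14 of the 20 (13 protein-coding genes and the pseudogene Gm4535), and limma called 0 higher and 0 lower, beside 1.91% and 0.466% of all tested genes. At an unadjusted p under 0.05 there were 3 (Slc25a22, Rplp2 and Tspan4), where 16.1% of all tested genes reach that value, and limma-voom on the recovered reads also called 0. The log2 changes ran from -0.19 to 0.23 with a median of 0.00, against -0.01 over all tested genes. The ratios of means ran from 0.861 to 1.23. The lowest adjusted p among the 14 was 0.27 (limma).

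Slc25a22, a mitochondrial glutamate carrier, is the nearest gene. Its levels were 3.04, 3.11 and 2.33 FPKM in control and 3.53, 3.61 and 3.31 FPKM in knockout. The knockout libraries were all above the controls, but the step was small, 1.23 times (2.83 ± 0.435 to 3.48 ± 0.157 FPKM; log2 change 0.23, SE 0.10; limma adjusted p = 0.304). Its control 3 was its lowest library, as for Cend1. Subtracting Slc25a22 from Cend1 in each library, on the log2 scale, left 1.41 ± 0.104 in control and 2.77 ± 0.0699 in knockout (SD, n = 3). That is a difference of 1.37 between groups that did not overlap (exact permutation p = 0.1, the smallest possible). Because Cend1 changed far more than Slc25a22, this largely restates the change of Cend1 and is no separate evidence.

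On the other side the nearest tested protein-coding gene is Gatd1, 12309 bases downstream and on the same strand. It stood at 8.65, 8.04 and 7.02 FPKM in control and at 6.61, 7.52 and 7.57 FPKM in knockout, close to the control level of Cend1 and with overlapping groups (log2 change -0.11; limma adjusted p = 0.597). Cend1 minus Gatd1 was 0.18 in control and 1.90 in knockout on the log2 scale. The 2 genes were thus near each other in control ventricle and far apart in the knockout. Against the mean of its 14 tested neighbours Cend1 went from -0.46 ± 0.193 to 1.13 ± 0.0945 (SD, n = 3), a difference of 1.59 (exact permutation p = 0.1). These differences too largely restate the change of Cend1.

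The other neighbours cover a wide range of levels, from 2.79 to 273 FPKM in control over all 14. Rplp2, an acidic protein of the large ribosomal subunit, was the highest, at 273 ± 17.5 FPKM in control and 238 ± 15.1 FPKM in knockout (SD, n = 3). All its knockout libraries were below its controls (log2 change -0.19; limma adjusted p = 0.309). Tspan4, a tetraspanin, had all knockout libraries above its controls, at 25.6 and 29.96 FPKM (log2 change 0.22; limma adjusted p = 0.27), and 13.4% of its exon bases lie under exons of Chid1. These 2 genes and Slc25a22 were the neighbours whose groups did not overlap, 2 of 14 upward and 1 of 14 downward, beside 11% and 10.4% of all tested genes.

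The remaining 10 neighbours had overlapping groups. Taldo1, an enzyme of the pentose phosphate pathway, had means of 77.9 and 82.4 FPKM in control and knockout. Cd151, another tetraspanin, had 62.4 and 62.6 FPKM, and Polr2l, a subunit of the RNA polymerases, 33.4 and 34.2 FPKM. Pnpla2, the lipase that starts the breakdown of stored triglyceride, had 13.8 and 13.6 FPKM. The means of Cd151, Polr2l and Pnpla2 differed by less than the SD of their controls, and those of Taldo1 by slightly more. Deaf1, a transcription factor, had 5.63 and 5.95 FPKM, Tmem80 4.95 and 4.26 FPKM and Chid1 4.21 and 4.43 FPKM. Pidd1, a death domain protein induced by p53, had 2.79 and 2.73 FPKM. The pseudogene Gm4535 had 4.70 and 4.24 FPKM, and Cracr2b, with 50.8% of its exon bases under another gene's exons, 2.81 and 2.83 FPKM. The other 6 neighbours did not pass the filter on low values. B230206H07Rik, Gm25725 and Snora52 were listed at 0 in every library, which for Snora52, with 100% of its exon bases under Rplp2, says nothing of its level, and Eps8l2, Gm10575 and Gm45416 had a mean under 0.5 FPKM.

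**Figure D3:**
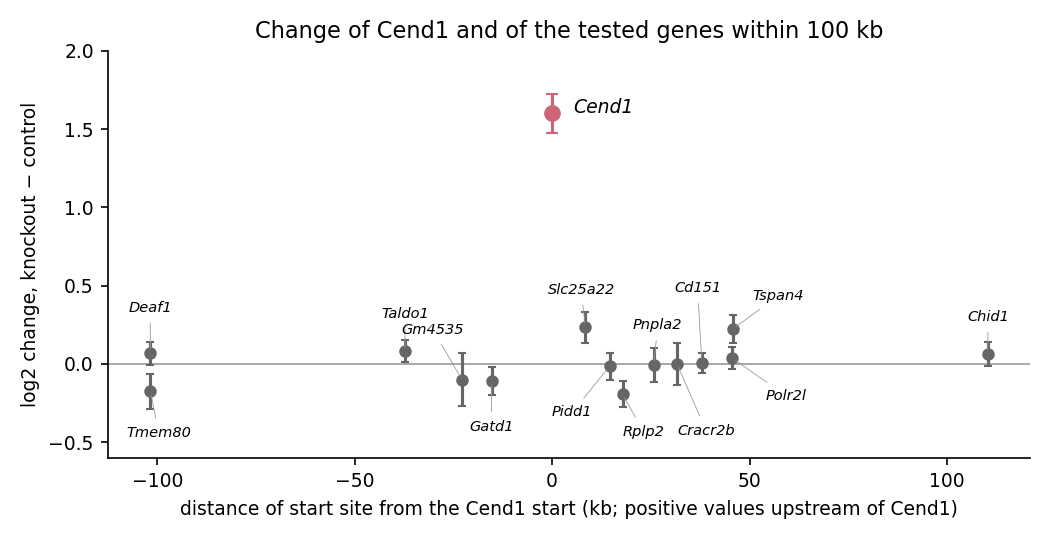
Knockout minus control difference in log2(FPKM + 1) with its SE (bars) for Cend1 and the 14 tested genes within 100 kb, placed by the distance of their start site from that of Cend1 in kb. Cend1 stands at 1.60, and every neighbour lies between -0.19 and 0.23.

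By its own level Cend1 lay in the middle of this group in control ventricle, between Pnpla2 and Gatd1 in FPKM. In knockout ventricle its mean of 29.7 FPKM was next to that of Tspan4 (29.96 FPKM), from which it did not differ beyond the spread. On all of chromosome 7, 25 of 1038 tested genes, Cend1 among them, were called higher and 5 lower. Over all tested genes the shares were 1.91% and 0.466%. The called gene nearest to Cend1 on the side of lower coordinates was Irf7, an interferon regulatory factor 160.0 kb away, with 0.505 FPKM in control and 1.56 FPKM in knockout (limma adjusted p = 0.036). On the other side it was Tnni2, a troponin I of fast muscle 1012 kb away, with 40.3 FPKM in control and 18.9 FPKM in knockout (limma adjusted p = 0.0396).

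None of the 3 listed partners of Cend1 and no tested gene on the list of the cyclin D1 axis was called. Of 27 genes on that list 26 were tested, and limma called 0 higher and 0 lower, beside 1.91% and 0.466% of all tested genes. At those shares a list of this size would show few calls or none. Its median log2 change was 0.01 against -0.01 over all tested genes. With the table rescaled to TPM, or without control replicate 3, the inhibitor Cdkn1a was called, and with haemoglobin and mitochondrial genes left out of the scaling the cyclin Ccnd2 was called. Limma-voom called 0, and 5 of the 26 had an unadjusted p under 0.05, beside 16.1% of all tested genes. Shares near those of all genes say nothing about a list. All knockout libraries lay above all controls for 6 of the 26 and below for 0, beside 11% and 10.4% of all tested genes. Ranbp9, which encodes the scaffold protein RanBPM, stood at 9.09 ± 0.889 FPKM in control and 9.12 ± 0.468 FPKM in knockout (SD, n = 3). Ahi1, a protein of the primary cilium, had 1.61 and 1.67 FPKM, and the kinase Dyrk1b 7.44 and 6.61 FPKM. The groups overlapped for all 3 partners.

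Ccnd1, which encodes cyclin D1, was at 29.1, 27.7 and 26.1 FPKM in control and at 32.1, 30.1 and 31.3 FPKM in knockout. Every knockout library was above every control, by 1.13 times in the mean (log2 change 0.17, SE 0.07; limma adjusted p = 0.264), and 23.4% of its exon bases lie under another gene's exons. Ccnd2 had 43.0 ± 1.94 FPKM in control and 53.1 ± 3.63 FPKM in knockout (SD, n = 3; log2 change 0.30; limma adjusted p = 0.0945). Cdkn1a, the p53-induced inhibitor p21, had 9.56 ± 0.952 and 12.4 ± 0.912 FPKM (SD, n = 3; log2 change 0.34; limma adjusted p = 0.108). Both had groups that did not overlap, and both changes were far smaller than that of Cend1. Trp53, the gene for p53, had 25.9 and 26.5 FPKM and Rb1 2.74 and 3.01 FPKM, while Cdkn2a was too low to test.

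Of 16 proliferation genes tested limma called 0 in either direction, near the 1.91% and 0.466% of all tested genes. An unadjusted p under 0.05 was reached by 1, beside 16.1% of all tested genes. The median log2 change was -0.06 against -0.01, with 13 of 16 below 0. That direction depended on the setting. With TPM the median was 0.03, with 9 of 16 above 0, against 0.06 over all tested genes. Without control replicate 3 it was -0.17, with 1 of 16 above 0. Pcna, the DNA polymerase clamp, had 159 FPKM in control and 139 FPKM in knockout (limma adjusted p = 0.302). Cdk1, the kinase that drives mitosis, had 49.9 and 44.97 FPKM (limma adjusted p = 0.364), with every knockout library below the controls. Among 19 tested genes of the proneural and Notch list limma also called 0, with 2 at an unadjusted p under 0.05 (16.1% of all tested genes) and a median log2 change of 0.06. Heyl was called by limma-voom, and Hey2 without control replicate 3. Heyl, a target of Notch, had 3.08 and 1.82 FPKM (limma adjusted p = 0.0879), and Hey2, a ventricular repressor of the same family, had 29.8 and 23.1 FPKM (limma adjusted p = 0.278). The proneural genes Neurog1, Neurog2, Neurog3, Neurod1, Neurod2 and Atoh1 were listed at 0 in every library. In the list of LSD1 complex genes and the factors that recruit it, 1 of 21 tested genes was called, Kdm1a itself. That is the deletion target, and over all tested genes 1.91% were called higher and 0.466% lower. Rcor1, which encodes CoREST, had 8.43 FPKM in control and 9.57 FPKM in knockout (limma adjusted p = 0.288).

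Because Cend1 is known from neurons, 26 neuron markers were read beside it. Only 4 passed the filter on low values (Gap43, Tubb3, Nefl and Prph), and limma called 0 of them, with 1 (Nefl) at an unadjusted p under 0.05. With 1.91% and 0.466% of all tested genes called and 16.1% at that unadjusted p, 4 genes are too few to set these counts apart from the background. Their median log2 change was 0.13, against -0.01 over all tested genes. Nefl, a neurofilament, had 0.803 ± 0.246 FPKM in control and 1.25 ± 0.233 FPKM in knockout (SD, n = 3; limma adjusted p = 0.286), with 32.8% of its exon bases under another gene's exons. Prph, the filament peripherin, had 0.501 and 0.680 FPKM (limma adjusted p = 0.595). Tubb3, the neuronal beta tubulin, had 2.31 ± 0.787 and 2.28 ± 0.597 FPKM (SD, n = 3). The summed FPKM of the 26 was 35.6, 33.4 and 35.3 in control and 43.0, 35.9 and 32.9 in knockout, so the groups overlapped.

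Most of that sum was Gap43, a growth cone protein, with 27.6 FPKM in control and 29.6 FPKM in knockout. Without Gap43, a split made after the values were seen, the other 25 markers summed to 6.78, 6.52 and 8.18 FPKM in control and 8.99, 6.97 and 7.03 FPKM in knockout. In the knockout Cend1 alone, at 27.2 FPKM or more, stood above the sum of these 25 markers in each library, and in control it lay above the sum in libraries 1 and 2 and below it in library 3. Per kilobase of exon, 23 of the 26 markers had a mean under 1 FPKM. None was at 0 in all 6 libraries, and between 19 and 22 of the 26 had at least 3 reads in a library. Elavl3, a neuronal RNA-binding protein, had 0.102 FPKM in control and 0.278 FPKM in knockout, and Isl1 had 0.639 and 0.264 FPKM. Neither was tested.

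Markers of other cell types that a ventricle sample can hold were read in the same way, and limma called 0 in each list, beside 1.91% of all tested genes called higher and 0.466% lower, so that lists of this size would show few calls or none. Cardiomyocyte markers summed to 16877 to 21370 FPKM in control and 17904 to 19566 FPKM in knockout, and Tnnc1 and Pln had the smallest p of the 16 tested (limma adjusted p = 0.283 and 0.27). Their median log2 change was -0.08, against -0.01 over all tested genes, with 12 of 16 below 0. With quantile normalization the median was 0.01, with 9 of 16 above 0, and without control replicate 3 it was -0.16, with 1 of 16 above 0. Among 9 endothelial markers, which summed to 131 to 188 FPKM in control and 157 to 198 FPKM in knockout, Npr3 and Emcn had the smallest p (limma adjusted p = 0.114 and 0.27). The median log2 change of the 9 was 0.21, with 9 of 9 above 0. Npr3 was called by limma-voom, and Npr3 and Emcn without control replicate 3. Immune markers summed to 118 to 147 FPKM in control and 144 to 168 FPKM in knockout, and 3 of the 7 tested had an unadjusted p under 0.05, beside 16.1% of all tested genes, with C1qa and C1qb the smallest (limma adjusted p = 0.115 and 0.156). Their median log2 change was 0.28, with 6 of 7 above 0. C1qa was called with TPM and with scaling without haemoglobin and mitochondrial genes, and Lyz2 without control replicate 3. In the 8 epicardial, 7 smooth muscle and fibroblast and 10 erythroid markers tested, the smallest limma adjusted p values were 0.691 for Upk1b, 0.358 for Tagln and 0.273 for Klf1. Of the 6 liver and lung markers only Ttr was tested (limma adjusted p = 0.619), and the list summed to at most 2.25 FPKM in any library. Whether the makeup of the tissue plays a part in the level of Cend1 was not tested.

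**Figure D4:**
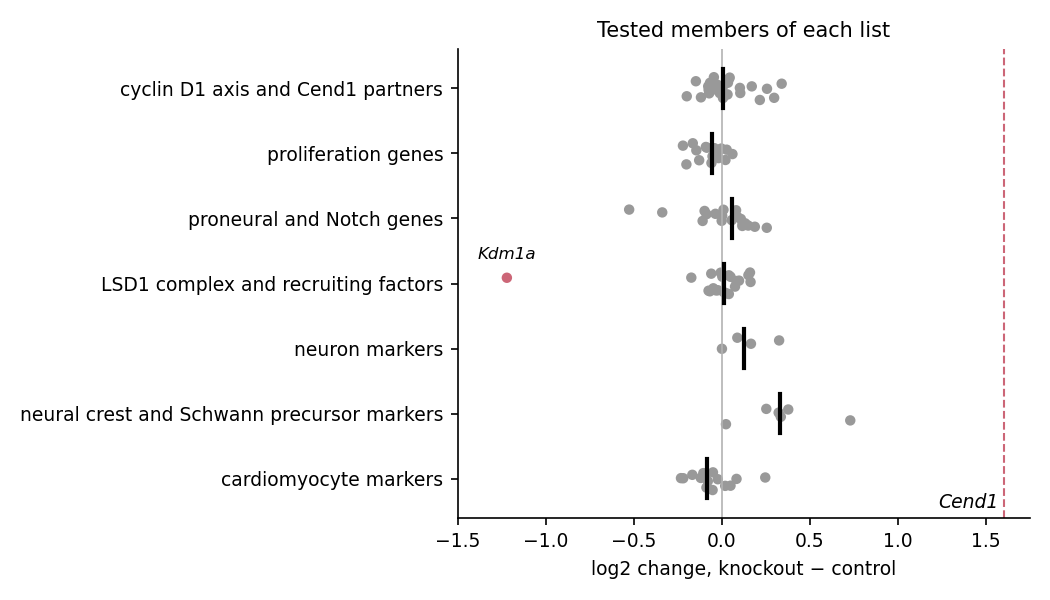
Knockout minus control difference in log2(FPKM + 1) for each tested member of 7 lists (points; vertical bars are list medians, vertical jitter has no meaning), with Cend1 as a dashed line at 1.60. The only called member is Kdm1a, at -1.22, and no member of these lists reaches the line.

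Neural crest and Schwann precursor markers set 1 library apart. Sox10 was at 0, 0.313 and 0.611 FPKM in control and at 5.24, 0.287 and 0.202 FPKM in knockout, so that knockout 1 alone was high. The summed level of the 11 markers, largely Ednrb, was 29.6, 32.7 and 47.5 FPKM in control and 55.3, 47.4 and 46.4 FPKM in knockout. Limma called 0 of the 6 tested, too few to set apart from the 1.91% and 0.466% of all tested genes called higher and lower. The median log2 change of the 6 was 0.33, with 6 of 6 above 0. Without knockout replicate 1 it was 0.003, with 3 of 6 above 0. Ednrb was called without control replicate 3. Cend1 in knockout 1, at 29.6 FPKM, lay between the other knockout libraries. Without that library its log2 change was 1.60 (limma adjusted p = 0.0127).

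The 6 libraries were of similar depth, with 17896745 to 20073984 recovered reads. Mitochondrial genes took 4.64% to 9.03% of the summed FPKM and haemoglobin genes 1.98% to 4.32%, with the highest share of both in control 3, the control with the lowest Cend1. Without control 3 the log2 change of Cend1 was 1.47, and with haemoglobin and mitochondrial genes left out of the scaling it was 1.67. The female transcript Xist was at 12.1 FPKM in knockout 3, at 1.11 FPKM in knockout 1 and at or below 0.0125 FPKM elsewhere, and the Y-linked Ddx3y was at 0 in knockout 3 and at 13.0 to 14.3 FPKM in the other libraries. Knockout 2 and knockout 3 thus do not stem from the same embryo. The controls all held Ddx3y with almost no Xist, so sex was not balanced between the groups. Its part in the level of Cend1 was not tested. Knockout 1 held both transcripts beside its high Sox10, and the labels do not say whether a library pools embryos. Whether knockout 1 holds RNA of more than 1 embryo or of other tissue was not tested. Without knockout 3 the log2 change of Cend1 was 1.66 (limma adjusted p = 0.00964).

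The genes whose pattern over the 6 libraries was most like that of Cend1 were ranked by the distance between their log2(FPKM + 1) values and its own, each set taken relative to its control mean. Distances are root mean squares in log2 units over 11975 protein-coding genes, with a median of 1.15. The 10 smallest were 0.138 for Meioc, 0.139 for Tubb4a, 0.146 for Nrsn2, 0.194 for Stac2, 0.214 for Syngr3, 0.229 for Trpv2, 0.231 for Tceal6, 0.239 for Gng3, 0.248 for Dnajc22 and 0.25 for Tmem35a. The next gene stood at 0.268, so the list has no natural end. All 10 were called higher, which follows from how they were chosen, and 0 lie on chromosome 7. Their control levels, 0.0435 to 6.85 FPKM, were all below that of Cend1, and their ratios ran from 3.08 to 55.3. The highest ratio is that of Syngr3, whose control levels of 0.0262 to 0.0543 FPKM are too low for a reliable ratio. Syngr3, Gng3 and Dnajc22 had control means under 0.5 FPKM and passed the filter on low values only through the knockout libraries.

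Tubb4a, a beta tubulin of neurons and glia, had 4.38, 4.04 and 2.77 FPKM in control and 12.52, 11.7 and 10.6 FPKM in knockout. Its lowest control was control 3 and its lowest knockout library knockout 3, as for Cend1. Its highest library was knockout 1, where that of Cend1 was knockout 2. Nrsn2, a membrane protein of neuronal vesicles, had 1.60, 1.35 and 1.25 FPKM in control and 5.51, 5.67 and 5.50 FPKM in knockout, and 16.6% of its exon bases lie under Gm14164. Meioc, a meiotic protein, had 0.927, 0.730 and 0.662 FPKM in control and 3.82, 4.16 and 3.54 FPKM in knockout. In Meioc and Nrsn2, as in Cend1, the highest library was knockout 2 and the lowest control 3. A shared order can follow from how these genes were chosen and is no separate evidence.

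Tmem35a had 5.54, 8.06 and 6.94 FPKM in control and 20.7, 21.3 and 21.3 FPKM in knockout. Its control order differed from that of Cend1, with control 1 the lowest. Trpv2, a cation channel, had means of 1.01 and 4.06 FPKM, Tceal6, related to an elongation factor, 1.26 and 6.83 FPKM, and Dnajc22, a J-domain protein, 0.392 and 2.56 FPKM. Gng3 shares 24.2% of its exon bases with Bscl2. The choice of genes depends on the scale: with a pseudocount of 0.1 in place of 1 FPKM, 3 of the 10 were again among the nearest 10, and without control replicate 3, 6 were. Nrsn2 and Tubb4a were the 2 found under each of these and the other leave-one-out settings.

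**Figure D5:**
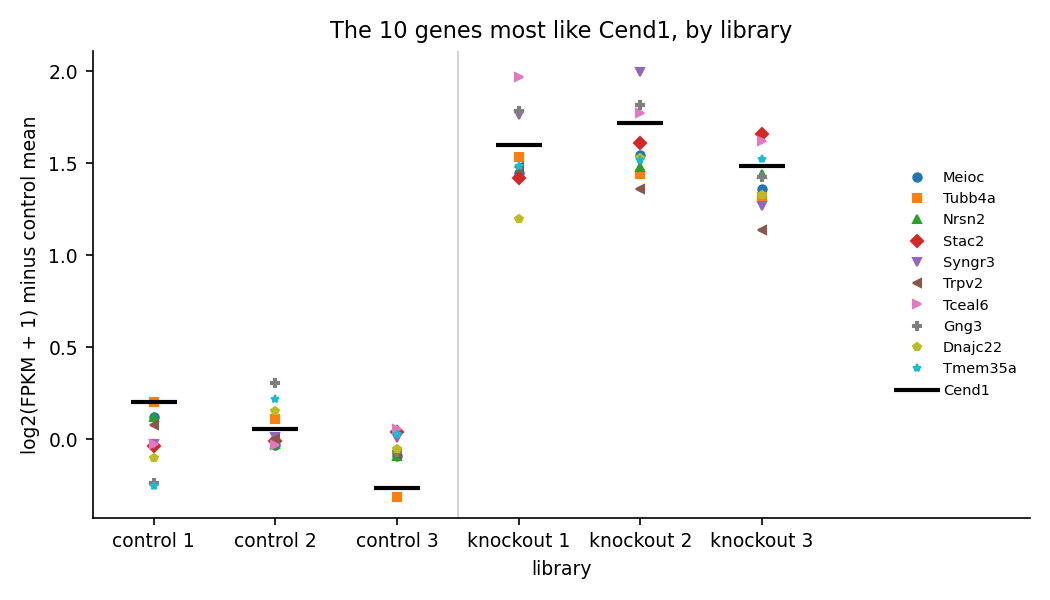
Level of Cend1 (black dashes) and of the 10 genes most like it in each library, as log2(FPKM + 1) minus the control mean of each gene. The knockout values of Cend1 lie among those of the 10 genes in every knockout library, and its control 3 value is lower than that of all but Tubb4a.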

How the data were processed

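Total RNA of heart ventricles was extracted with TRIzol and made into libraries with a NEBNext Ultra RNA kit, per the labels' protocols. Reads were handled with HISAT2 2.0.5, featureCounts 1.5.0-p3, fastp and CASAVA on mm10, per the submitters' processing notes, and no source used here gives the annotation release. The deposited file is 1 table of the authors' FPKM values, scaled by gene length and library total, with no read counts and no strand information. Names, exon lengths and positions came from GENCODE M21 by Ensembl ID (54409 of 54532 matched, 123 not), and promoters from RefSeq.

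Reads were recovered from FPKM times exon length: for genes under 30 reads, 98.1% to 98.5% of values lay within 0.02 of a whole read. Intervals are exact Poisson intervals at 95% on those reads and cover counting error only. The 14149 genes averaging 0.5 FPKM or more were compared by genotype in limma 3.58.1 (R 4.3.3) as log2(FPKM + 1), with a trend and two-sided p-values, and called at a Benjamini-Hochberg adjusted p under 0.05. Changes on that scale understate those of low genes. Exact permutation tests were two-sided. The procedure was tested on simulated data with the same added scatter for every gene and equal depth. That setting is simpler than these libraries, so the test does not measure the error rate here. Other steps used Python 3.11.15 with pandas 2.3.3, scipy 1.17.1 and matplotlib 3.10.9.

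Genes were named by rule: Cend1 and Kdm1a, the tested neighbours within 100 kb, the 10 genes most like Cend1, the 3 protein-coding called genes on each side of it by log2 change, Ranbp9, Ahi1, Dyrk1b and Ccnd1, and from each list up to 3 called members or else the 2 with the smallest p. Other genes named were picked from the lists for their role or after their values were seen. The gene and the lists were chosen with earlier results of these data known. Alternatives were another pseudocount, other filters, quantile normalization, TPM, scaling without haemoglobin and mitochondrial genes, limma-voom on recovered reads, a replicate block and leaving out each library. No pair of libraries agreed within sampling noise, and each was counted as 1 replicate. That check does not show that the libraries of a genotype are independent.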

Additional observations from a re-analysis of the deposited data

How the results depend on the processing

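Cend1 was called higher in all 14 alternatives run, with a log2 change of 1.47 (without control replicate 3) to 1.74 (TPM), an adjusted p of 3.92e-05 (limma-voom) to 0.0156 (no filter on low values) and a p rank of 3 to 21. The neighbours and neuron markers had 0 calls in each of them. These counts cover the 14 neighbours and 4 markers tested, except that 8 and 1 were tested with a minimum mean of 5 FPKM, and 17 and 26 with no filter on low values. Counts over all genes moved more: 270 were called higher and 66 lower, against 409 and 102 with limma-voom, 110 and 12 with no filter on low values, 132 and 48 with a minimum mean of 5 FPKM, 369 and 40 with TPM, and 395 and 49 with scaling without haemoglobin and mitochondrial genes. Leaving out 1 library gave 111 to 273 higher and 23 to 108 lower, each from fewer samples. The count of lower genes moved by over 1.5 times whichever library was left out, upward only for control replicate 3, and the count of higher genes did so for every library except that one. Both were lowest without knockout replicate 2. In the cyclin D1 list, 0 to 1 genes were called when 1 library was left out, and 1 with TPM or without haemoglobin and mitochondrial genes. Of the 10 genes most like Cend1, 6 to 9 were shared when 1 library was left out and 3 with a pseudocount of 0.1 FPKM. The mean percentile of Cend1 was 75.1 in control and 91.1 in knockout over all genes above 0, and 29.9 and 74.5 over genes averaging 5 FPKM or more. The cause of these shifts was not tested, and some settings also entered fewer genes, more genes or fewer samples.

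The replicate numbers were not shown to pair the libraries: deviations of same-numbered libraries correlated at -0.00210, 0.140 and 0.164 across genes. With the replicate number as a block, the log2 change of Cend1 was 1.60 (limma adjusted p = 0.00726), and 220 genes were called higher and 64 lower. Not every library correlated best with its own number.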
